A study of Homo sapiens with 54 samples.

Results

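The genes of the G1/S transition and of DNA replication were followed through 3 human prostate cancer cell lines treated with estrogenic and antiandrogenic agents. They are 43 genes of 19225 in the table, taken from a list of names and found by symbol or Entrez ID, with 1 row each. By role they are 7 G1 cyclins and kinases, 4 E2F factors, 9 genes that license origins, 6 that fire origins or move the fork, 11 of DNA synthesis, 4 of nucleotide supply and 2 tied to chromatin and histone mRNA. RNA was sequenced in 54 libraries, 3 in each of 18 groups, from a study of estrogen receptor beta. Cells received 17-beta-estradiol (E2, 100 nM), the code-named compound OSU-ERb-12 (OSU, 100 nM), the antiandrogen enzalutamide (Enza, 1 µM), E2 with Enza, OSU with Enza, or ethanol as vehicle. All groups were treated for 12 h in medium with 10% fetal bovine serum, which carries hormones of its own, and were called biological triplicates by the submitters. The lines were 22Rv1, from a relapsed prostate cancer xenograft, C4-2, a castration-resistant subline derived from LNCaP, and LNCaP, an androgen-responsive line from a lymph node metastasis. Each line is a single culture model, and the RNA is of all cells in a dish, so that fewer cells in S phase and less RNA per cell cannot be told apart.

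Entry into S phase is driven by cyclin D with CDK4 or CDK6 and by cyclin E with CDK2, which phosphorylate the retinoblastoma protein and free E2F transcription factors. E2F factors in turn raise the genes for origin licensing, replication forks and nucleotide supply, with E2F7 and E2F8 as repressors of the same genes. In prostate cancer cells the androgen receptor drives proliferation, in part through this step.

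Many members, not all, hold E2F letters in their promoters. The letters were not used to choose the members, but genes of these roles are known E2F targets, so the share is not independent of the choice. In a window of 300 bases, from 250 before to 50 after the start site in RefSeq (GRCh38.p14), 1 of the spellings TTTCCCGC, TTTCGCGC, TTTGCCGC or TTTGGCGC stood on either strand in 19 of the 36 members with an entry (52.8%). The same letters stood in 1090 of 27305 genes (3.99%), which are all genes with an entry and not only those of the table. The CCAAT box, spelled CCAAT, was in 58.3% of these members and 39.7% of all genes, and the GC box, spelled GGGCGG, in 77.8% and 48.3%. The spelling TTTGAA of the CHR element, known from G2/M promoters, was in 2.78% of these members and 18.2% of all genes, on both strands. Estrogen and androgen response elements in full palindromic form matched 0 of the 36. They matched only 0.073% and 0.0037% of all genes, so 0 among 36 says nothing particular of the members. A match describes letters and not a bound site. The 4 promoters shown had the most matches, and then the most calls, among members called in at least 4 of the 15 comparisons of an agent with vehicle, so their calls helped to choose them. They run 5′ to 3′ on the gene's strand, from 160 bases before to 30 after the start, with E2F letters in capitals. They lie at chr2:135876414-135876603 (minus strand, MCM6), chr17:40287719-40287908 (plus strand, CDC6), chr13:33817989-33818178 (plus strand, RFC3) and chr20:5126593-5126782 (minus strand, PCNA). MCM6 holds 4 matches in 2 stretches, where spellings of both strands overlap, and the others hold 1 each.
MCM6: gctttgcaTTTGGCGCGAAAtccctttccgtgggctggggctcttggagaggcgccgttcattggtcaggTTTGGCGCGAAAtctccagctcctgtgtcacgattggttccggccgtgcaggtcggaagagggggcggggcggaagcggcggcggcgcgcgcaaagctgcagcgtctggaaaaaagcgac
CDC6: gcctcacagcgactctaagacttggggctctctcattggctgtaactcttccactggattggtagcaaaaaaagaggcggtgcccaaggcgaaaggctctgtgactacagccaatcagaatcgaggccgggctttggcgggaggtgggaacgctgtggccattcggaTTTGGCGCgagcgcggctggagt
RFC3: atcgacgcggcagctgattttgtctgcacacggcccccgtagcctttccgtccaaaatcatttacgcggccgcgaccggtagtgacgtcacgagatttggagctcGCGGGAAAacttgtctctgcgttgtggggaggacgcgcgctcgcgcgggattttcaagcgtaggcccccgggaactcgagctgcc
PCNA: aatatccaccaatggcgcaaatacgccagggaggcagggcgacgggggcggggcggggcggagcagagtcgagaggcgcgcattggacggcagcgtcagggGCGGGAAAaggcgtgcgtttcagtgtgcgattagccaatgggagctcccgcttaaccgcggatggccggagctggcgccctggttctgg

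The data behind the members were deep. Libraries held 32819568 to 52417050 reads in genes, a single read corresponded to 0.0204 to 0.0323 CPM, counts per 1000000 of the effective library, and the member with the fewest reads in any library, CDK6, still had 340. All 9 luminal prostate markers were in the table, and their summed level was 1509 to 1893 CPM in 22Rv1, 3375 to 6154 CPM in C4-2 and 2406 to 5659 CPM in LNCaP. The 2 measured basal markers summed to at most 0.0527, 1.31 and 4.17 CPM in the same order. Over all libraries, 6 measured fibroblast markers summed to 8.15 to 24.5 CPM and 4 leukocyte markers to 0.581 to 2.01 CPM. The library titled C4-2 vehicle 1 carries the cell line tag of 22Rv1 and was kept as C4-2. Its CCND1 level was 354 CPM, beside 335 and 350 CPM in the other C4-2 vehicle libraries and 1585 to 1651 CPM in those of 22Rv1. This library and 3 more (C4-2 E2 3, 22Rv1 vehicle 3 and 22Rv1 OSU+Enza 2), called below the libraries that stand apart, were left out in an alternative given beside the results it moves. Mitochondrial rRNA was highest of its group in C4-2 E2 3 (0.149% of reads in genes) and in 22Rv1 vehicle 3 (0.196%). Small RNA was highest of its group in 22Rv1 OSU+Enza 2 (14.9%). Every group has a highest library, so these values are not a rule for leaving libraries out. Small RNA ran from 13.1 to 17.6% in LNCaP vehicle and from 7.83 to 12.2% in 22Rv1 Enza, groups kept whole in this alternative. Of the members, 10 overlap another gene of the table, and the strand setting of the counting is not given in the sources used here. A gene was called at an adjusted p under 0.05 in limma with Benjamini-Hochberg adjustment over all genes of a comparison. Levels are in CPM with the SD of 3 libraries, and fold changes are differences of log2(CPM + 0.5) with the SE, n = 3 libraries a group throughout.

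Before any agent, the members differed between the lines in size and in pattern. In C4-2 against LNCaP vehicle cells, 37 of 43 were higher and 1, the polymerase alpha subunit POLA2, was lower, beside 34% and 32.7% of all genes, with a median of 0.36 among members and 0 among all genes. All 9 licensing genes and all 4 E2F factors were among the higher ones. RFC3, a subunit of the clamp loader that seats PCNA on DNA, had 171, 164 and 166 CPM in C4-2, against 57.2, 59.4 and 56.8 CPM in LNCaP (log2 fold change 1.52 ± 0.04, adjusted p = 3.34e-36). MCM3, a subunit of the replicative helicase, had 293, 287 and 295 CPM in C4-2, against 135, 130 and 131 CPM in LNCaP (1.14 ± 0.04, adjusted p = 1.81e-31). The libraries of the lines lay far apart in both genes.

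In 22Rv1 against LNCaP vehicle cells, 26 members were higher and 10 lower, beside 40.4% and 43% of all genes. The 36 of 43 called in either direction are a share near the 83.3% of all genes. The member median was 0.24 against -0.03 for all genes. CCND1 and CDK6 of the G1 genes and E2F2 were among the members furthest apart. CCND1, cyclin D1, had 1585, 1613 and 1651 CPM in 22Rv1, against 314, 302 and 316 CPM in LNCaP (2.38 ± 0.03, adjusted p = 5.1e-48). CDK6, a partner kinase of cyclin D, had 44.9, 45.2 and 46.3 CPM in 22Rv1, against 15.4, 12.9 and 14.2 CPM in LNCaP (1.65 ± 0.07, adjusted p = 1.47e-27). The groups did not overlap in either gene. The activator E2F2 differed by 1.83 ± 0.06 and the helicase subunit MCM7 by 0.95 ± 0.04, whereas GINS1 (-0.62 ± 0.04), thymidine kinase TK1 (-0.55 ± 0.05) and cyclin E1, CCNE1 (-0.61 ± 0.06), were lower in 22Rv1. MCM7 overlaps AP4M1 and microRNA genes, and E2F2 a noncoding gene.

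Set directly against C4-2, 22Rv1 was higher in 16 members and lower in 23, beside 41.5% and 43.3% of all genes. The 39 of 43 called in either direction are again a share near that of all genes, 84.7%. CCND1 (2.22 ± 0.03), E2F2 (1.59 ± 0.06) and CDK6 (1.32 ± 0.07) were higher in 22Rv1. TK1 (-1.35 ± 0.05), MCM3 (-1.21 ± 0.04) and RFC3 (-1.16 ± 0.04) were lower in it. With libraries set to total reads, the median over all genes shifted by 0.24 in this comparison, by 0.12 between 22Rv1 and LNCaP and by -0.10 between C4-2 and LNCaP. The member split then became 22 higher and 15 lower in 22Rv1 against C4-2, near the shares of all genes, 52.3% and 32.9%. In 22Rv1 against LNCaP it was 28 and 5, beside 46.1% and 36.9% of all genes. In C4-2 against LNCaP it was 31 and 3, beside 24.5% and 41.5%.

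**Figure D1:**
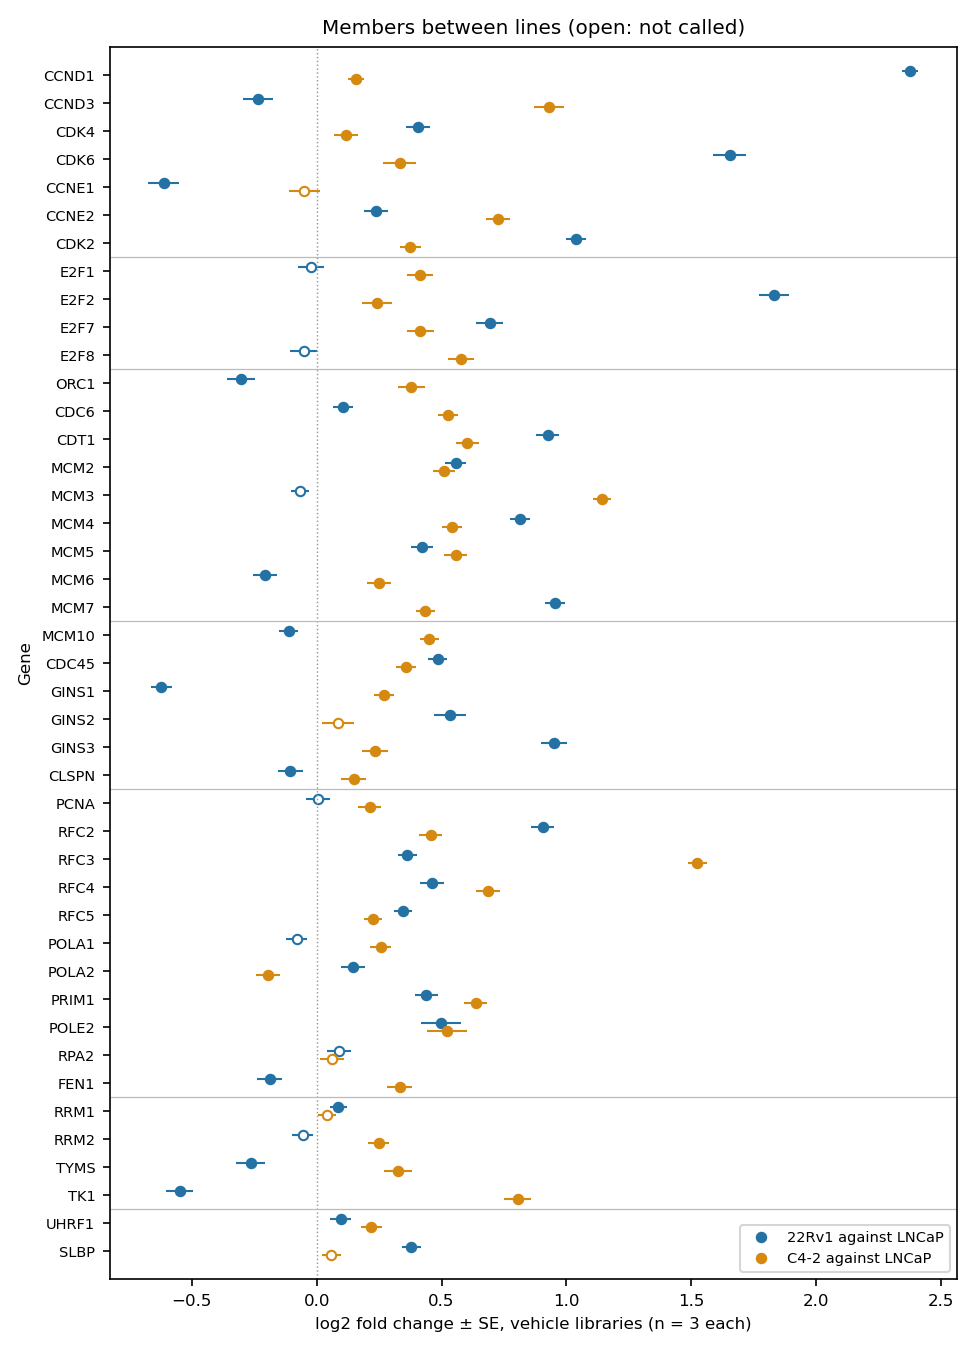
Log2 fold change ± SE of each member between vehicle libraries (n = 3 a line), 22Rv1 against LNCaP in blue and C4-2 against LNCaP in orange; open points were not called. C4-2 points lie right of 0 for 41 of 43 members, and 22Rv1 spreads from GINS1 at -0.62 to CCND1 at 2.38.

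E2 raised the members broadly in 22Rv1. Of 43, 29 were higher and 1 lower, beside 17.1% and 10.6% of all genes, with a median of 0.18 against 0.03 for all genes tested. Log2 fold changes were positive in 40 members. By role, 5 of 7 G1 cyclins and kinases, 1 of 4 E2F factors, 7 of 9 licensing genes, 3 of 6 fork genes, 8 of 11 synthesis genes, 3 of 4 nucleotide genes and both chromatin genes were higher. Folds were small, the highest being CCNE2, cyclin E2.

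Among the G1 genes, CCNE2 had 59.4, 62.8 and 63.1 CPM with E2, against 42.8, 46.3 and 43.8 CPM with vehicle (0.48 ± 0.05, adjusted p = 3.1e-08). The E2 libraries all lay above the vehicle libraries. CCNE2 overlaps INTS8 and NDUFAF6, which stood at 0.13 ± 0.05 (not called) and 0.19 ± 0.06 (called) in the same comparison. CCND1 had 1819, 1828 and 1800 CPM with E2, against 1585, 1613 and 1651 CPM with vehicle (0.17 ± 0.06, adjusted p = 0.0289). The member that was lower was CDK6, at 36.4, 39.6 and 43.8 CPM with E2, against 44.9, 45.2 and 46.3 CPM with vehicle (-0.19 ± 0.06, adjusted p = 0.0268). Its groups did not overlap, although the highest E2 library came close to the vehicle libraries.

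Further down the path, CDC6, which loads the helicase onto origins, had 121, 128 and 124 CPM with E2, against 104, 103 and 101 CPM with vehicle (0.27 ± 0.05, adjusted p = 8.26e-05). RRM2, the regulated subunit of ribonucleotide reductase, had 254, 255 and 266 CPM with E2, against 197, 202 and 203 CPM with vehicle (0.36 ± 0.05, adjusted p = 1.71e-06). SLBP, which binds the stem-loop of histone mRNA, had 145, 155 and 142 CPM with E2, against 119, 122 and 118 CPM with vehicle (0.30 ± 0.05, adjusted p = 1.79e-05). In all 3 genes every E2 library exceeded every vehicle library. The clamp loader subunit RFC2 (0.25 ± 0.05) and the flap nuclease FEN1 (0.26 ± 0.05) completed the members with the smallest p. The helicase subunit MCM6 and the sliding clamp PCNA, whose promoters are shown above, differed by 0.18 ± 0.05 and 0.24 ± 0.05.

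**Figure D2:**
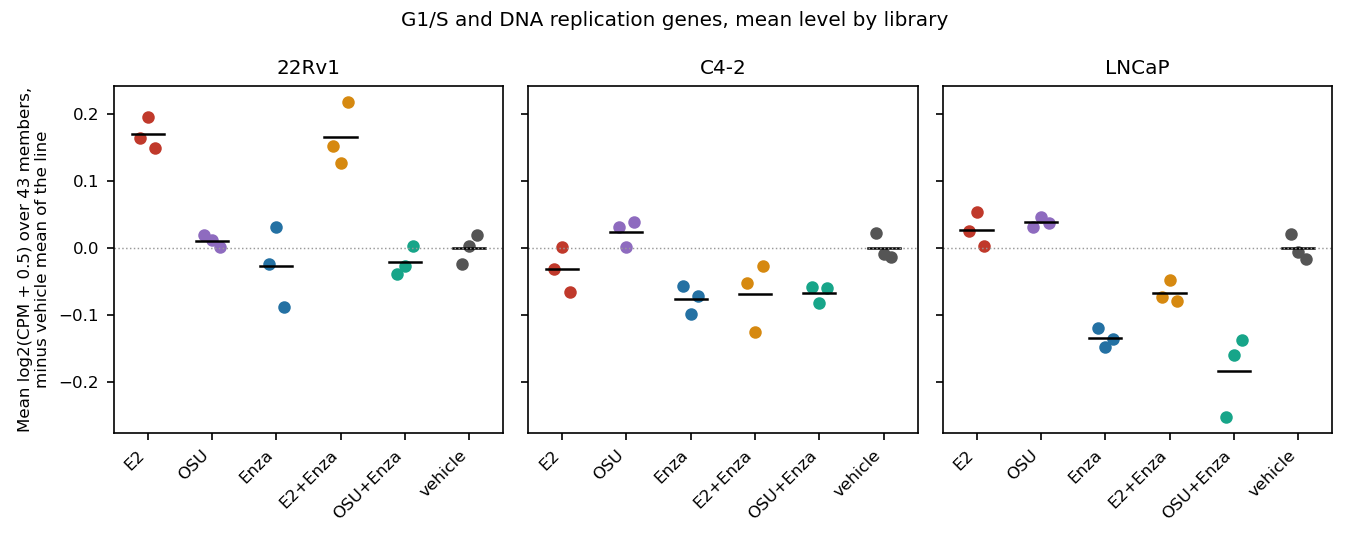
Mean of log2(CPM + 0.5) over the 43 members in each library, minus the vehicle mean of its line; points are libraries and bars are means of 3. The 22Rv1 E2 and E2+Enza libraries lie between 0.13 and 0.22, and the LNCaP OSU+Enza libraries between -0.25 and -0.14.

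Other cell cycle lists are given beside the 17.1% of all genes called higher, the 10.6% called lower and the all-gene median of 0.03. Of 50 other replication genes, 21 were higher and 2 lower (median 0.13), among the higher ones ATAD2, an E2F coactivator (0.56 ± 0.05), and ORC5, an origin recognition subunit (0.40 ± 0.07). Of 25 G2/M and mitosis genes, 10 were higher and 0 lower (median 0.12), led by the mitotic kinase CDK1 (0.27 ± 0.05). Of 12 cell cycle inhibitors and pocket proteins, 7 were higher and 0 lower (median 0.16), among them the CDK inhibitors CDKN1B (0.19 ± 0.04), CDKN2D (0.32 ± 0.07) and CDKN1A (0.29 ± 0.07). With total read scaling these lists had 8, 3 and 3 higher and 3, 0 and 0 lower, beside 6.72% and 14.2% of all genes, and with cyclic loess 10, 5 and 3 higher and 4, 0 and 0 lower, beside 9.18% and 11%.

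The size of this response depended on how libraries were scaled. Total reads over the authors' effective library size was 0.946 to 0.962 in E2 libraries and 0.895 to 0.924 in vehicle libraries of 22Rv1. Scaled to total reads, 14 members were higher and 1 lower, beside 6.72% and 14.2% of all genes, with a median of 0.12 against -0.03. TMM rescaling gave 28 higher and 1 lower, beside 13.8% and 12.3%. Cyclic loess, which evens out trends with level, gave 16 and 1, beside 9.18% and 11%, with a median of 0.09 against 0.01. The median of the members stayed above that of all genes under each of the 4 scalings. Effective sizes, total reads and TMM shift members and other genes nearly alike, so only cyclic loess could change that gap. Over all genes tested, the log2 fold change correlated with mean level (r = 0.30), and the members were not compared with genes of like level. Left without E2 replicate 2, the count of calls was 19. It was 32 with both 22Rv1 libraries that stand apart, vehicle 3 and OSU+Enza 2, left out of the fit.

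**Figure D3:**
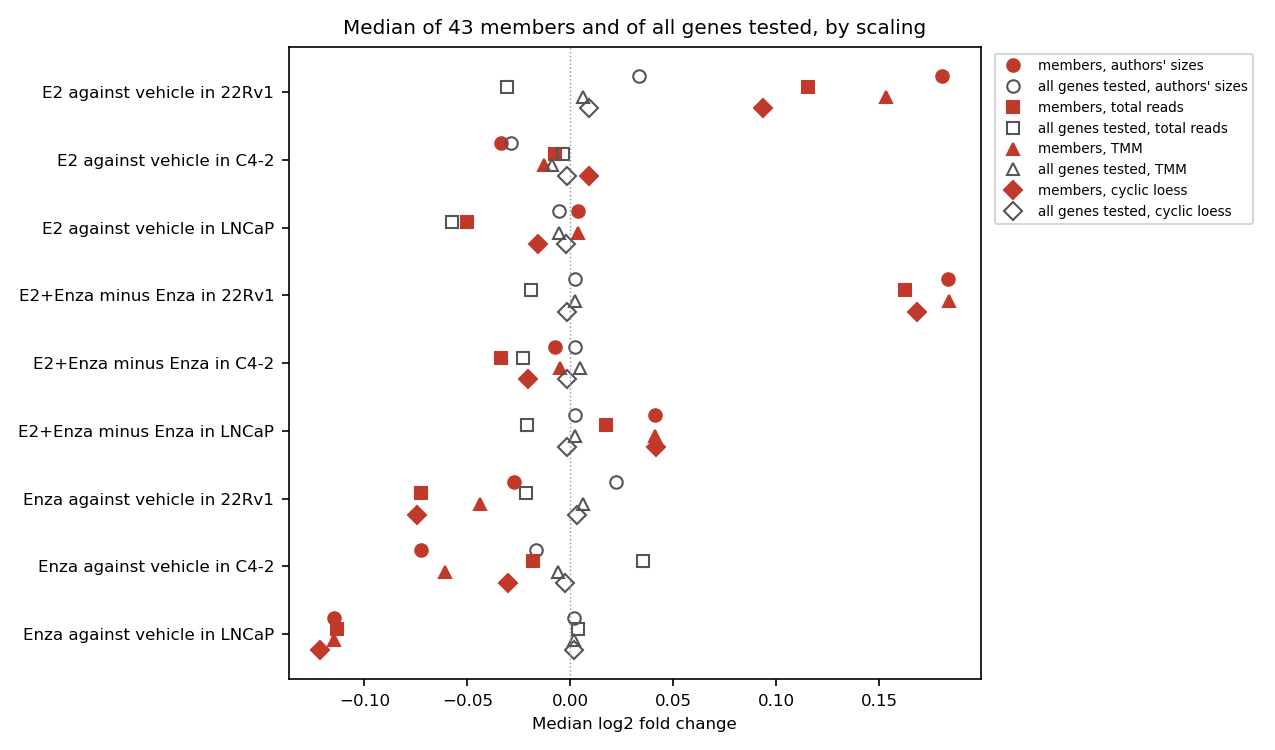
Median log2 fold change of the 43 members (filled) and of all genes tested (open) under 4 scalings of the libraries, for E2 against vehicle, E2+Enza minus Enza and Enza against vehicle in each line. In 22Rv1 the filled E2 points lie between 0.09 and 0.18, right of every open point of that row; in LNCaP the filled Enza points lie between -0.12 and -0.11, left of every open one.

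E2 also raised the members of 22Rv1 when it was given with Enza. E2+Enza against vehicle had 26 members higher and 0 lower, beside 8.1% and 5.72% of all genes, with a median of 0.16 against 0.02. CCNE2 had 58.6, 57 and 60 CPM with E2+Enza, above all 3 vehicle libraries (0.40 ± 0.05, adjusted p = 1.87e-06). RRM2 had 257, 245 and 266 CPM with E2+Enza, also above all 3 (0.35 ± 0.05, adjusted p = 7e-06). Scaled to total reads, 11 members were higher and 0 lower, beside 2.92% and 10.2% of all genes. Cyclic loess gave 18 and 0, beside 5.73% and 7.08%. The count was 13 without vehicle replicate 1, 14 without vehicle replicate 2 and 11 without E2+Enza replicate 3.

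Set against Enza alone, where the median of all genes was 0.00, E2+Enza had 26 members higher and 0 lower in 22Rv1, beside 4.11% and 3.83% of all genes. All 43 log2 differences were positive, from 0.05 to 0.45, with a median of 0.18. The count was 20 scaled to total reads, 33 with TMM rescaling and 30 with cyclic loess, all higher. Of all genes, 3.15%, 4.58% and 4.47% were then higher. CCNE2 stood at 42.5, 44.3 and 41.4 CPM with Enza alone, below every E2+Enza library (0.45 ± 0.05, adjusted p = 1.14e-07). MCM10, which helps to switch on the helicase, had 75.2, 74.9 and 81.9 CPM with E2+Enza, against 63.4, 67.3 and 61.7 CPM with Enza (0.27 ± 0.05, adjusted p = 0.000209). Without Enza replicate 3 the count was 16, and without E2+Enza replicate 3 it was 17. The test of whether the E2 effect in 22Rv1 depended on Enza called 0 members in limma, beside 0.135% of all genes higher and 0.289% lower, with 3 members (14.1% of all genes) at an unadjusted p under 0.05, 0 calls with voom weights, and 1 call without E2 replicate 3. The vehicle, Enza and E2+Enza libraries serve in more than one of these comparisons.

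Enza alone lowered the members in LNCaP. Of 43, 22 were lower and 0 higher, beside 10.6% and 9.79% of all genes (20.4% together), with a median of -0.11 against 0.00. Log2 fold changes were negative in 41 members. By role, 4 of 7 G1 cyclins and kinases, 2 of 4 E2F factors, 5 of 9 licensing genes, 4 of 6 fork genes, 5 of 11 synthesis genes, both chromatin genes and 0 of 4 nucleotide genes were lower.

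The largest change was in CDK6, with 8.21, 7.66 and 7.55 CPM with Enza, against 15.4, 12.9 and 14.2 CPM with vehicle (-0.82 ± 0.07, adjusted p = 2.44e-09). CDC6 had 77.5, 81.2 and 80.2 CPM with Enza, against 95.2, 96 and 95.8 CPM with vehicle (-0.26 ± 0.04, adjusted p = 8.5e-06). SLBP had 78.5, 76.1 and 78.3 CPM with Enza, against 92.6, 89.5 and 93.5 CPM with vehicle (-0.24 ± 0.03, adjusted p = 2.6e-06). No Enza library reached a vehicle library in these 3 genes. RFC3 (-0.23 ± 0.04), UHRF1, which guides maintenance of DNA methylation (-0.21 ± 0.04), and MCM10 (-0.19 ± 0.04) followed by p. CCND1 had 289, 292 and 290 CPM with Enza, against 314, 302 and 316 CPM with vehicle (-0.10 ± 0.03, adjusted p = 0.013).

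Scaling changed the number of Enza calls in LNCaP and not the median. Scaled to total reads 12 members were lower and with cyclic loess 26, beside 8.85% and 11.1% of all genes, with member medians of -0.11 and -0.12. The count was 13 without vehicle replicate 1, 14 without vehicle replicate 2 and 13 without Enza replicate 2. Other lists stand beside the same 9.79% of all genes higher and 10.6% lower, with an all-gene median of 0.00. Of 50 other replication genes, 19 were lower and 0 higher (median -0.10), led by ORC5 (-0.42 ± 0.05), ATAD2 (-0.24 ± 0.04) and SKP2, a ubiquitin ligase subunit (-0.24 ± 0.04). Of 25 G2/M genes, 2 were higher, CCNB1 (0.13 ± 0.03) and KIF2C (0.09 ± 0.03), and 0 lower, a share near that of all genes, and 1 was higher with total read scaling or cyclic loess. Of 11 inhibitors and pocket proteins, CDKN1A (0.34 ± 0.04) and CDKN1B (0.30 ± 0.04) were higher and 0 lower.

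OSU+Enza in LNCaP lowered 37 members and raised 1, beside 15.2% and 14.5% of all genes (29.7% together), with a median of -0.16 against 0.00. All 9 licensing genes and all 6 fork genes were lower. RFC3 had 44.8, 45.4 and 45.7 CPM with OSU+Enza, against 57.2, 59.4 and 56.8 CPM with vehicle (-0.35 ± 0.04, adjusted p = 1.08e-07). MCM10 had 57.6, 60 and 60.7 CPM with OSU+Enza, against 78.2, 73.7 and 71.2 CPM with vehicle (-0.32 ± 0.04, adjusted p = 2.07e-07). Both groups were clear of each other in either gene. The higher member was TK1 (0.12 ± 0.04, adjusted p = 0.0232). With total read scaling, 28 were lower and 1 higher, beside 13% and 14% of all genes. In mean over the members, OSU+Enza replicate 1 was the lowest library at -0.25, against -0.16 and -0.14 for replicates 2 and 3.

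OSU+Enza did not differ from Enza alone beyond the threshold in LNCaP. The comparison called 0 members, beside 0.00702% of all genes higher and 0.0912% lower, with 13 members (1 positive) and 8.37% of all genes at an unadjusted p under 0.05, and 0 calls with voom weights. The member median was -0.05 against 0.00, and log2 differences ran from -0.15 to 0.23. The highest was CDK6, at 8.89, 9.55 and 9.35 CPM with OSU+Enza, against 8.21, 7.66 and 7.55 CPM with Enza (0.23, 95% interval 0.08 to 0.39, adjusted p = 0.307).

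**Figure D4:**
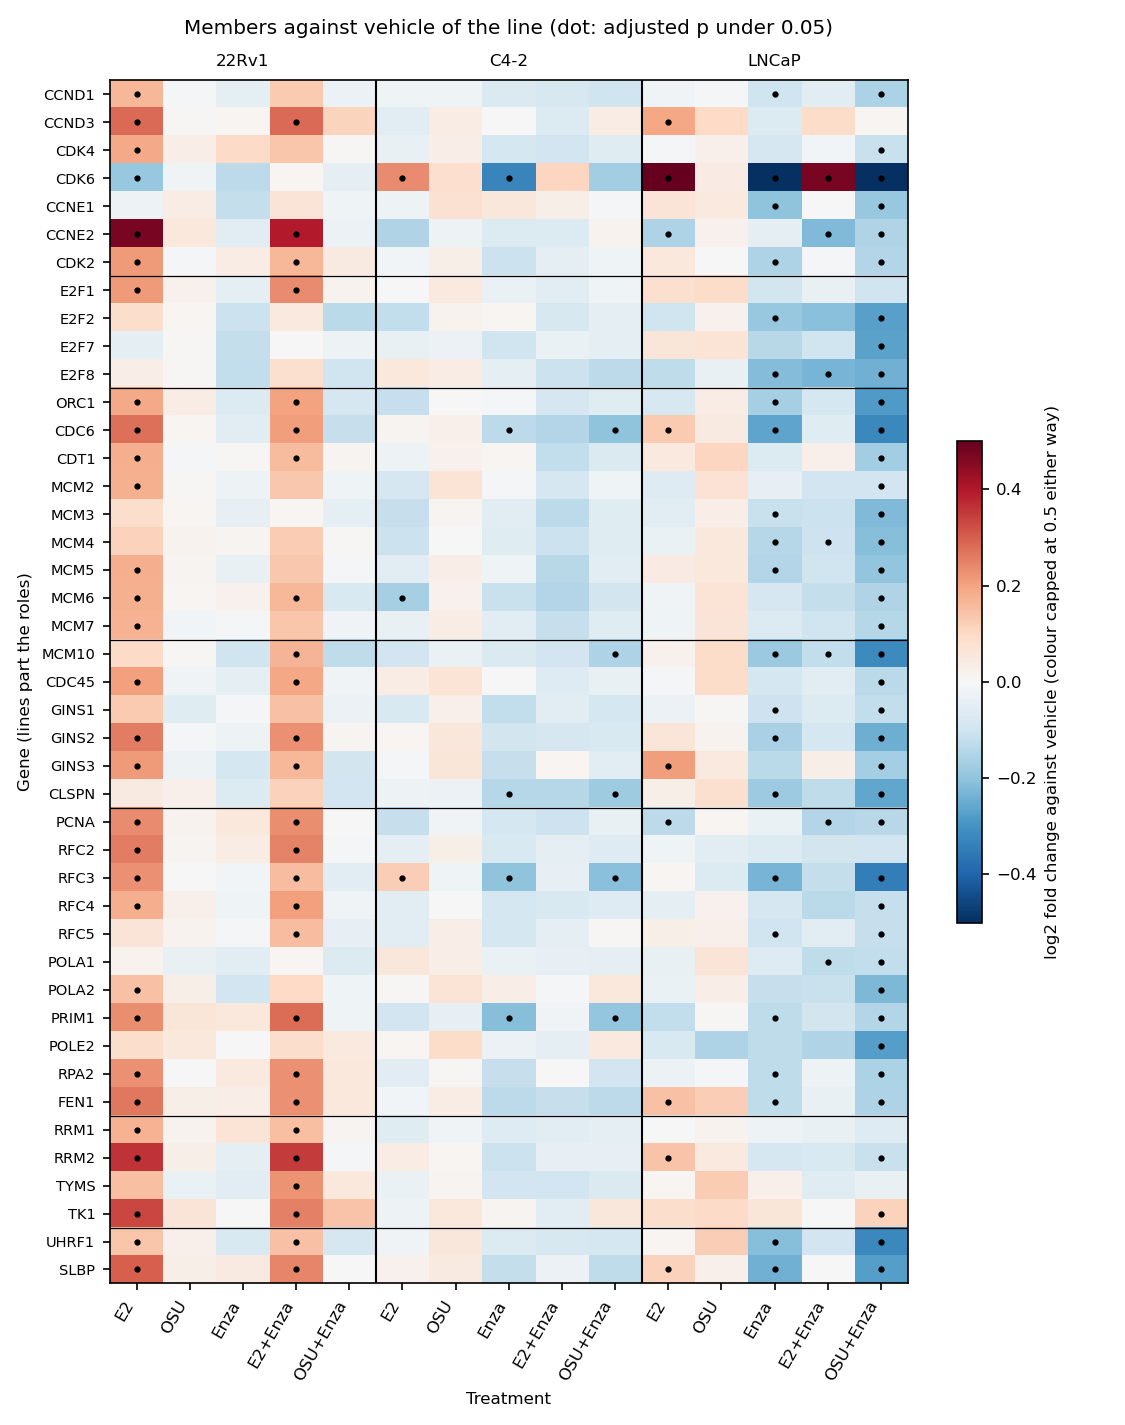
Log2 fold change against vehicle of the same line for 43 members (rows, grouped by role) and 5 treatments in 3 lines (columns), with the colour capped at 0.5 either way and a dot where adjusted p was under 0.05. The E2 and E2+Enza columns of 22Rv1 hold 30 and 26 dots, and the Enza and OSU+Enza columns of LNCaP hold 22 and 38.

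E2 in LNCaP changed members about as often as other genes, and CDK6 by the most. It called 7 higher and 2 lower, beside 13.3% and 11.6% of all genes (24.9% together), with a median of 0.00 against -0.01. CDK6 had 26, 27.4 and 24.1 CPM with E2, against 15.4, 12.9 and 14.2 CPM with vehicle (0.85 ± 0.07, adjusted p = 5.42e-10), with a wide gap between the groups. The other higher members by p were RRM2 (0.14 ± 0.04), cyclin D3, CCND3 (0.19 ± 0.05), SLBP (0.12 ± 0.03), the helicase subunit GINS3 (0.21 ± 0.06), CDC6 (0.13 ± 0.04) and FEN1 (0.15 ± 0.05). CCNE2 had 31.5, 35.3 and 34.3 CPM with E2, against 38.8, 36.4 and 37.3 CPM with vehicle (-0.16 ± 0.05, adjusted p = 0.0235). PCNA had 128, 139 and 129 CPM with E2, against 147, 143 and 143 CPM with vehicle (-0.13 ± 0.04, adjusted p = 0.00898). Both fell below all vehicle libraries. With total read scaling the split turned to 1 higher and 5 lower, beside 8.05% and 18.6% of all genes, whose median was -0.06.

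E2 on top of Enza in LNCaP had 8 members higher and 2 lower than Enza alone, beside 12.2% and 10.9% of all genes. CDK6 had 20.7, 20.6 and 18.3 CPM with E2+Enza, against 8.21, 7.66 and 7.55 CPM with Enza (1.29 ± 0.07, adjusted p = 7.72e-14). SLBP (0.24 ± 0.03, adjusted p = 1.55e-06) and CDC6 (0.20 ± 0.04, adjusted p = 0.000195) were the next by p. CCNE2 (-0.17 ± 0.05) and PCNA (-0.11 ± 0.04) were again lower. The count was 6 without E2+Enza replicate 2. CDK6 was the member whose E2 effect depended on Enza in LNCaP, by 0.44 ± 0.11 (adjusted p = 0.00633), beside 4.51% of all genes higher and 4.54% lower (9.05% together). The number of such members was 2 without vehicle replicate 3, without Enza replicate 2 or without E2+Enza replicate 2.

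E2+Enza against vehicle in LNCaP called 1 member higher, CDK6 (0.47 ± 0.07, adjusted p = 9.16e-05), and 6 lower, beside 4.52% and 2.91% of all genes (7.42% together), with a median of -0.09. The lower ones were CCNE2 (-0.22 ± 0.05), PCNA (-0.15 ± 0.04), E2F8 (-0.23 ± 0.06), MCM10 (-0.12 ± 0.04), the catalytic polymerase alpha subunit POLA1 (-0.13 ± 0.04) and MCM4 (-0.10 ± 0.03). Cyclic loess gave 14 lower and 1 higher, beside 3.87% and 4.65% of all genes. The count of 7 was 3 without vehicle replicate 1, and 4 without E2+Enza replicate 1, without E2+Enza replicate 2 or in the fit of all 54 libraries.

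**Figure D5:**
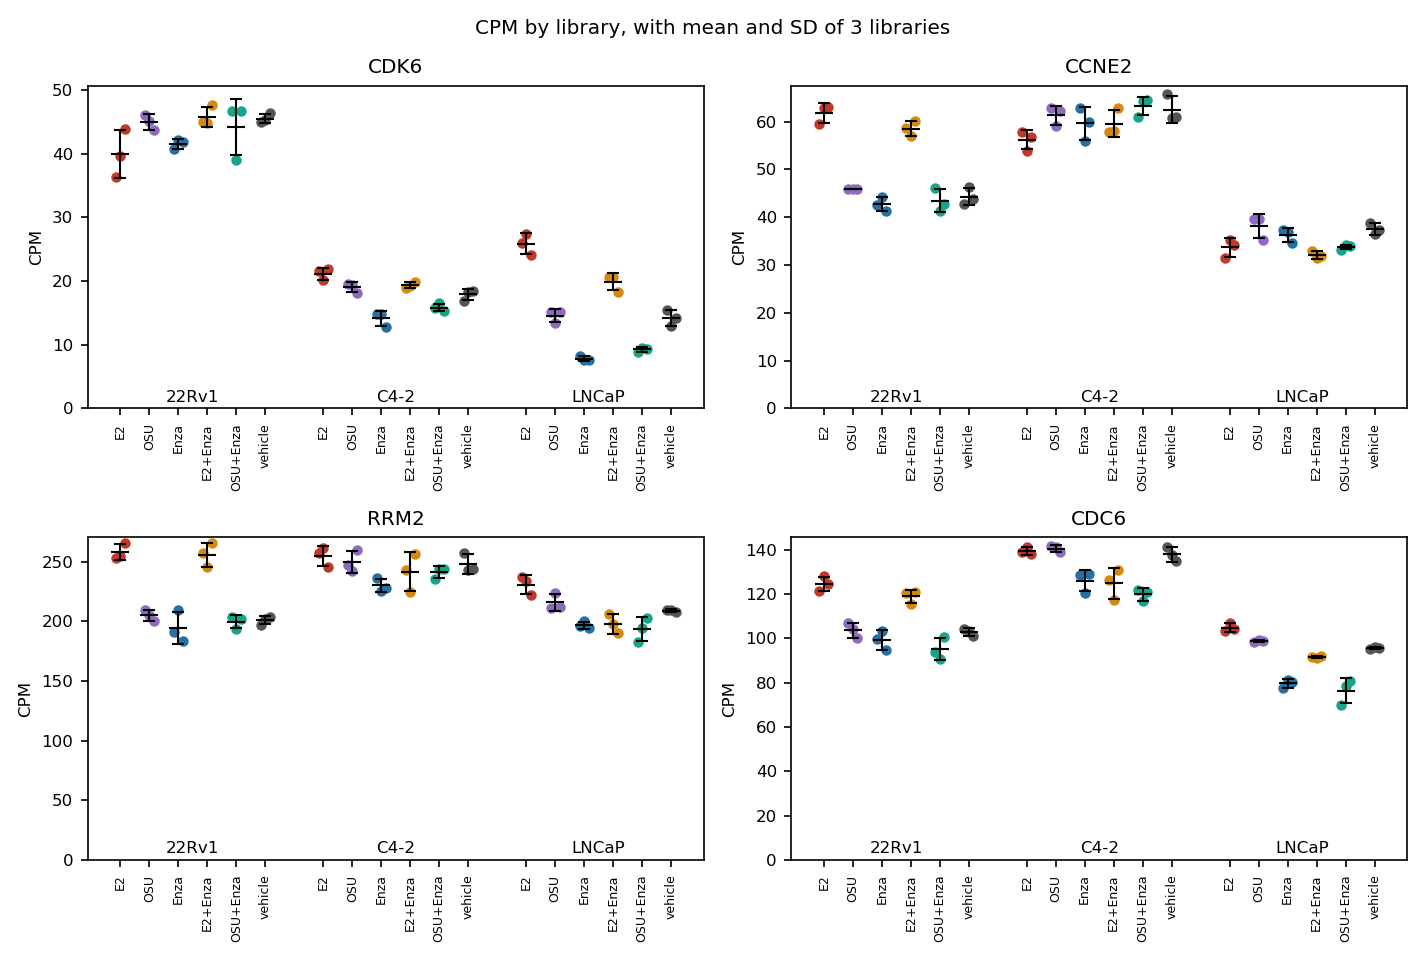
CPM in each library for CDK6, CCNE2, RRM2 and CDC6, with mean and SD of 3 libraries, over 6 treatments in 22Rv1, C4-2 and LNCaP; axes start at 0. In LNCaP, CDK6 averaged 25.8 CPM with E2 and 7.80 CPM with Enza, against 14.2 CPM with vehicle, and in 22Rv1 CCNE2 averaged 61.8 CPM with E2, against 44.3 CPM with vehicle.

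C4-2 had few calls. E2 called 2 members higher and 1 lower, beside 2.72% and 3.11% of all genes. CDK6 had 21.6, 20.1 and 21.8 CPM with E2, against 16.9, 18.3 and 18.5 CPM with vehicle (0.23 ± 0.07, adjusted p = 0.0303), with the groups apart. RFC3 (0.12 ± 0.03, adjusted p = 0.0288) was also higher and MCM6 (-0.17 ± 0.05, adjusted p = 0.0291) lower. Of all genes, 5.82% were called in either direction. The count of 3 was 0 after dropping the libraries that stand apart, 0 also without vehicle replicate 2, E2 replicate 1 or E2 replicate 3, and 1 without vehicle replicate 1 or 3.

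Enza in C4-2 lowered 5 members and raised 0, beside 5.71% and 2.73% of all genes, with a median of -0.07 against -0.02. RFC3 had 149, 141 and 146 CPM with Enza, against 171, 164 and 166 CPM with vehicle (-0.20 ± 0.03, adjusted p = 0.000199). CDK6 had 14.8, 14.8 and 12.8 CPM with Enza, against 16.9, 18.3 and 18.5 CPM with vehicle (-0.33 ± 0.07, adjusted p = 0.00151). Neither gene overlapped between the groups. The primase subunit PRIM1 (-0.21 ± 0.05), the checkpoint adaptor CLSPN (-0.14 ± 0.04) and CDC6 (-0.13 ± 0.04) were lower too. In either direction 8.44% of all genes were called. The count of 5 was 3 with the apart libraries left out, without any 1 of the vehicle replicates, without Enza replicate 3 or scaled to total reads, and 2 without Enza replicate 2. The member median was -0.02 with total read scaling and -0.03 with cyclic loess, against 0.04 and -0.003 for all genes. Total read scaling turned the split of all genes to 5.33% higher and 3.56% lower.

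OSU+Enza in C4-2 also lowered 5 and raised 0, beside 5.23% and 2.15% of all genes, RFC3 (-0.21 ± 0.03), CDC6 (-0.20 ± 0.04), PRIM1 (-0.19 ± 0.05), CLSPN (-0.18 ± 0.04) and MCM10 (-0.15 ± 0.04). In either direction 7.39% of all genes were called. That count was 2 without vehicle replicate 3 and 3 without OSU+Enza replicate 3, and 5 with the apart libraries left out. E2+Enza against vehicle in C4-2 called 0 in limma, beside 0.0428% of all genes higher and 0.0356% lower (0.0784% together), with 13 members, 0 of them positive, and 8.73% of all genes at an unadjusted p under 0.05, and 0 calls with voom weights. E2+Enza had 3 members higher than Enza alone and 0 lower, beside 4.43% and 2.94% of all genes (7.38% together). They were CDK6 (0.44 ± 0.07, adjusted p = 3.71e-05), RFC3 (0.16 ± 0.03) and PRIM1 (0.20 ± 0.05). Without E2+Enza replicate 1 that count was 5. Scaled to total reads the split was 3 higher and 3 lower, beside 3.97% and 4.7% of all genes. PRIM1 was the member whose E2 effect depended on Enza in C4-2 (0.29 ± 0.07, adjusted p = 0.027), beside 1.06% of all genes higher and 0.442% lower (1.5% together). That call was lost with the apart libraries left out, with total read scaling, with cyclic loess, and without vehicle replicate 1 or 3, E2 replicate 3, Enza replicate 2 or E2+Enza replicate 3.

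OSU alone called 0 members in any line in limma and 0 with voom weights. The share of all genes called was 0% in 22Rv1 and C4-2, and 0% higher and 0.014% lower in LNCaP. The number of members at an unadjusted p under 0.05 was 0 in 22Rv1, 0 in C4-2 and 9 in LNCaP, all 9 positive, beside 2%, 2.82% and 6.64% of all genes. Log2 fold changes ran from -0.06 to 0.06 in 22Rv1, from -0.04 to 0.09 in C4-2 and from -0.15 to 0.13 in LNCaP. CDK6 had 15.1, 13.5 and 15.2 CPM with OSU in LNCaP, within the range of the vehicle libraries (0.04, 95% interval -0.11 to 0.19). Averaged over the 3 lines, OSU called 0 members and 0% of all genes, with 4 members and 5.1% of all genes at an unadjusted p under 0.05, 0 calls with voom weights, and a median of 0.03 against 0.00.

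E2 and OSU, given at the same 100 nM for 12 h, were compared directly in 3 lines. In 22Rv1, 28 members were higher with E2 than with OSU and 0 lower, beside 13.2% and 8.81% of all genes. CCNE2 had 59.4, 62.8 and 63.1 CPM with E2, against 45.9, 45.9 and 46 CPM with OSU (0.42 ± 0.05, adjusted p = 2.6e-07), with no overlap. Scaled to total reads the split was 15 and 1, beside 5.42% and 12% of all genes, and with cyclic loess 16 and 1, beside 8.2% and 9.5%. The count was 18 without E2 replicate 1 and 17 without E2 replicate 2 or OSU replicate 3. In LNCaP, 3 were higher with E2 and 5 lower, beside 12.8% and 11.8% of all genes, CDK6 by 0.81 ± 0.07 (adjusted p = 1.45e-09). With total read scaling that split was 1 and 16, beside 7.76% and 19.6% of all genes, whose median was then -0.06. The LNCaP count of 8 was 3 without E2 replicate 1, 5 without E2 replicate 2 or OSU replicate 1, and 4 without OSU replicate 2. In C4-2, 1 was higher with E2 and 3 were lower, beside 2.94% and 3% of all genes (5.95% together), RFC3 by 0.14 ± 0.03. That count of 4 was 0 without E2 replicate 1, 1 without E2 replicate 3, OSU replicate 1 or the apart libraries, and 2 without OSU replicate 3.

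Enza and OSU+Enza in 22Rv1 called 0 members each in limma and 0 with voom weights. For Enza, 0.168% of all genes were higher and 0.491% lower, and 4 members and 14.8% of all genes stood at an unadjusted p under 0.05. For OSU+Enza, the shares were 0.666% and 1.33%, and 4 members and 15.5% of all genes stood at an unadjusted p under 0.05. CDC6 had 99.7, 103 and 94.7 CPM with Enza in 22Rv1, against 104, 103 and 101 CPM with vehicle, with overlap. OSU+Enza did not differ from Enza in C4-2 or 22Rv1 by any called member, with 3 and 1 at an unadjusted p under 0.05 (6.92% and 9.3% of all genes), 0 calls with voom weights, and shares of all genes of 0% higher in both, and 0% and 0.101% lower in C4-2 and 22Rv1.

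The E2 response differed between lines in 30 of 43 members by an F test over the 3 lines, beside 29.1% of all genes. CDK6 (adjusted p = 2.27e-11), CCNE2 (5.3e-11), PCNA (1.85e-05), PRIM1 (4.26e-05), SLBP (0.000256) and RRM2 (0.000258), by limma, had the smallest p. The E2 effect on CCNE2 exceeded that in LNCaP by 0.63 ± 0.07 in 22Rv1, and the same difference was -1.04 ± 0.10 for CDK6. In 22Rv1 against LNCaP, 17 members had a higher E2 effect and 1 a lower one, beside 6.83% and 4.39% of all genes. In 22Rv1 against C4-2 these were 30 and 1, beside 19.4% and 9.42%. In C4-2 against LNCaP they were 0 and 2, beside 3.2% and 5.21%, CDK6 (-0.61 ± 0.10) among them. That count of 2 was 1 when LNCaP vehicle replicate 1, LNCaP E2 replicate 1 or 2, any C4-2 vehicle replicate, or C4-2 E2 replicate 1 or 3 was dropped. With total read scaling it turned to 2 higher and 1 lower, beside 4.99% and 2.43% of all genes. The member median was then 0.03 against 0.05 for all genes. With the effective library sizes these medians were -0.05 and -0.02. Cyclic loess gave 1 higher and 1 lower, beside 3.55% and 4.62% of all genes. The F test count was 18 scaled to total reads, 14 with cyclic loess and 23 with the apart libraries left out. The difference between 22Rv1 and LNCaP was 17 and 1 scaled to total reads, beside 6.22% and 4.38% of all genes. With cyclic loess it was 13 and 1, beside 5.04% and 5.35%. Between 22Rv1 and C4-2 both gave 13 and 1, beside 6.66% and 11.6% scaled to total reads and 8.47% and 9.32% with cyclic loess. With the apart libraries left out, 20 members differed between 22Rv1 and C4-2, and 22 between 22Rv1 and LNCaP.

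The Enza response differed between lines in 6 of 43 members, a share near the 13.3% of all genes, CDK6 (adjusted p = 1.72e-06), SLBP (0.000478), RFC3 (0.0056), PRIM1 (0.0126), CDC6 (0.0257) and CDK2 (0.0357), by limma. CDK2, the kinase partner of cyclin E, had an Enza effect higher in 22Rv1 than in LNCaP by 0.19 ± 0.06. In 22Rv1 against LNCaP, 5 members had a higher Enza effect and 0 a lower one, beside 2.56% and 1.93% of all genes. CDK6 differed by 0.69 ± 0.10 and SLBP by 0.29 ± 0.05 there. In 22Rv1 against C4-2, 3 were higher and 0 lower, beside 7.57% and 3.69%, and in C4-2 against LNCaP, 1 and 0, beside 2.63% and 2.35%. The F test count was 3 scaled to total reads, 3 without 22Rv1 Enza replicate 2 and 10 without 22Rv1 Enza replicate 3. The count between 22Rv1 and LNCaP was 2 scaled to total reads, beside 1.75% of all genes higher and 2.63% lower. It was 3 without LNCaP Enza replicate 1, 22Rv1 vehicle replicate 1 or 22Rv1 Enza replicate 2. Between 22Rv1 and C4-2, total read scaling left 0 calls, with 1.74% of all genes higher and 6.13% lower. The member median was then -0.06 against -0.05 for all genes, and with the effective library sizes both were 0.04. Cyclic loess left 1 call, beside 4.21% of all genes higher and 4.25% lower, with a member median of -0.03 against 0.03 for all genes. The count there was 8 without 22Rv1 Enza replicate 3, and 1 without 22Rv1 vehicle replicate 1, 22Rv1 Enza replicate 2, C4-2 vehicle replicate 1 or C4-2 Enza replicate 2. The count between C4-2 and LNCaP was 2 without LNCaP vehicle replicate 3, 3 with total read scaling and 7 with cyclic loess. Under these 2 scalings all calls were higher, beside 2.96% and 2.85% of all genes called higher.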

How the data were processed

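Total RNA was sequenced in 54 libraries made with a stranded kit, per the labels' protocols, and each was put in its group by title and treatment label. FastQC, Trimmomatic, featureCounts, edgeR and the hg38 build appear in the submitters' processing notes, and Rsubread in the series' design text, all without a version in what was used here. The deposited values carry the name CPM but are a score, as the values show: log2 of CPM, after addition of 0.5 reads, multiplied by 1 constant a library that brings every column to 1000000, with 24.3 to 30.1% of values negative. Undoing both steps gave whole reads for 100% of values (largest distance 0.00938, tolerance 0.01).

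CPM was computed from these reads and the authors' effective library sizes. The test was limma 3.58.1 (under R 4.3.3) with its trend option on log2(CPM + 0.5), a scale that understates the change of low genes. It covered genes that reached 1 CPM in 3 or more libraries of the fit. A line's 18 libraries were fitted together (12 residual degrees of freedom; 14866 genes in 22Rv1, 14027 in C4-2 and 14251 in LNCaP), and contrasts between lines came from all 54 libraries (36 residual degrees of freedom; 16026 genes). All 43 members passed the filter in every fit. Tests were two-sided, with Benjamini-Hochberg adjustment over the genes of each comparison. An edgeR count test was not run, because the deposited unit is a score; voom weights on the recovered reads served as an alternative. The comparisons with Enza alone were added after the data were seen. The fit was tested on simulated data.

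The members and lists were chosen with earlier results of these data known. In each comparison the members named with values are up to 6 called ones of smallest p in each direction and the one of highest mean CPM per role, and of other lists up to 3 in each direction. Outside that rule, chosen after their values were seen, are MCM6 and PCNA with E2 in 22Rv1, FEN1 with E2 in LNCaP, CDK6 where OSU was set against vehicle or OSU+Enza against Enza in LNCaP, and CDC6 with Enza in 22Rv1. Alternatives were other library scalings, no filter, another pseudocount, voom weights, a replicate block, 1 fit of all libraries and leaving libraries out. RefSeq GRCh38.p14 gave a symbol to 18917 of 19225 gene IDs; 34 members were named in the table and 9 were found by ID alone.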

Additional observations from a re-analysis of the deposited data

Results flagged for a closer look

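Tests of a difference between lines picked out the following results for a closer look. The E2 effect differed over the 3 lines in 30 of 43 members, beside 29.1% of all genes, and the Enza effect in 6 of 43, near the 13.3% of all genes, each by an F test in limma. For E2, CDK6 had the smallest adjusted p (2.27e-11), with log2 fold changes of -0.19 in 22Rv1, 0.23 in C4-2 and 0.85 in LNCaP. CCNE2 (adjusted p = 5.3e-11) stood at 0.48 in 22Rv1 and -0.16 in LNCaP, and PCNA (1.85e-05, limma) at 0.24 and -0.13 in the same lines. PRIM1 (4.26e-05), SLBP (0.000256) and RRM2 (0.000258) followed, by the same limma test. For Enza, the adjusted p in limma was 1.72e-06 for CDK6, 0.000478 for SLBP, 0.0056 for RFC3, 0.0126 for PRIM1, 0.0257 for CDC6 and 0.0357 for CDK2.

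Tests of whether the E2 effect depended on Enza picked out CDK6 in LNCaP, by 0.44, and PRIM1 in C4-2, by 0.29. No explanation of these differences was tested.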

How the results depend on the processing

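Of 330 counts of called members under other settings, over 39 comparisons, 288 were within 1.5 times the reported count and 42 were past it. Counts of 0 under both settings were taken as within, which arises only where the reported count was 0. The 288 include these, so they do not measure how stable the called results are. Small reported counts did move, as for E2 in C4-2, from 3 to 0 with the apart libraries left out. These 330 leave out the runs without 1 replicate, which are given below. Among 2266 values of named members, those runs included, 213 were no longer called and 0 reversed. The cause was not tested. With total read scaling the counts were 12 for Enza in LNCaP, 17 for E2 minus OSU in LNCaP, 3 for Enza in C4-2, 0 for the dependence of E2 on Enza in C4-2, 6 for E2+Enza minus Enza in C4-2, 15 for E2, 11 for E2+Enza, 1 for OSU+Enza and 16 for E2 minus OSU in 22Rv1, 14 for the E2 effect of 22Rv1 minus C4-2, 3, 2 and 0 for the Enza effect of C4-2 minus LNCaP, 22Rv1 minus LNCaP and 22Rv1 minus C4-2, and 18 and 3 for the E2 and Enza effects over lines. With cyclic loess they were 15 for E2+Enza and 2 for the dependence on Enza in LNCaP, 3 for Enza, 0 for the dependence, 2 for E2 minus OSU and 6 for E2+Enza minus Enza in C4-2, 17 for E2, 1 for OSU+Enza and 17 for E2 minus OSU in 22Rv1, 14 for the E2 effect of 22Rv1 minus C4-2, 7 and 1 for the Enza effect of C4-2 minus LNCaP and 22Rv1 minus C4-2, and 14 for the E2 effect over lines. TMM rescaling gave 5 for E2+Enza minus Enza in C4-2, and voom weights 2 for the Enza effect of C4-2 minus LNCaP. With no filter they were 4 for E2+Enza in LNCaP, 3 for Enza in C4-2 and 1 for the E2 effect of C4-2 minus LNCaP. In 1 fit of all 54 libraries they were 4 for E2+Enza in LNCaP, 5 for E2 in C4-2 and 1 for OSU+Enza in 22Rv1. With the apart libraries left out they were 0 for E2, 3 for Enza, 0 for the dependence on Enza and 1 for E2 minus OSU in C4-2, 1 for the E2 effect of C4-2 minus LNCaP and 20 for that of 22Rv1 minus C4-2. A pseudocount of 2 CPM moved no count past 1.5 times.

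Leaving out 1 replicate at a time, counts ranged from 13 to 19 for Enza, 3 to 9 for E2+Enza, 1 to 2 for the dependence on Enza, 3 to 8 for E2 minus OSU, 6 to 9 for E2+Enza minus Enza, 6 to 12 for E2 and 27 to 35 for OSU+Enza in LNCaP. In C4-2 they ranged from 0 to 2 for E2, 2 to 4 for Enza, 2 to 5 for OSU+Enza, 0 to 1 for the dependence, 0 to 4 for E2 minus OSU and 2 to 5 for E2+Enza minus Enza. In 22Rv1 they ranged from 19 to 30 for E2, 11 to 25 for E2+Enza, 0 to 1 for the dependence, 17 to 29 for E2 minus OSU and 16 to 31 for E2+Enza minus Enza. Between lines they ranged from 1 to 3, 13 to 22 and 26 to 35 for the E2 effect of C4-2 minus LNCaP, 22Rv1 minus LNCaP and 22Rv1 minus C4-2, from 1 to 2, 3 to 6 and 1 to 8 for the Enza effect of the same pairs, and from 26 to 32 and 3 to 10 for the E2 and Enza effects over lines.

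Replicate numbers are shared by the groups, but 0 of 15 pairings of a treatment with vehicle had all correlations over 0.1. Single correlations ran from -0.22 to 0.26, so a shared effect of some replicates may remain. With the replicate number as a block, all 39 counts stayed within 1.5 times, with 19 for Enza in LNCaP and 30 for E2 in 22Rv1. With 3 libraries a group and folds this small, a member that was not called is not shown to be unchanged.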
